A study of Rattus norvegicus with 6 samples.

Results

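The genes described here build the contacts between endothelial cells: the adherens junction gene Cdh5, the tight junction membrane genes Cldn5 and Ocln, the immunoglobulin-type junction genes F11r, Jam2, Jam3 and Esam, and the plaque genes Tjp1 and Cgn. They were taken as a given list by gene symbol, 9 of the 32623 genes in the count tables, and 7 of the 9 passed the low-count filter that left 12742 genes for testing. RNA was sequenced from primary liver sinusoidal endothelial cells of Han Wistar rats. These cells line the liver's fenestrated capillaries. They were kept for 48 h in a perfused liver-on-a-device culture together with hepatocytes, stellate cells and macrophages, under a shear stress of 1.15 dyn/cm2. One group was held at 1 mmHg, the physiological sinusoidal pressure, and the other at 12 mmHg, a pathological pressure, with 3 libraries each. The contrast addresses what a raised sinusoidal pressure does to these cells.

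Endothelial cells are held together by adherens junctions, in which VE-cadherin binds its like on the neighbouring cell and is anchored to actin through catenins, and by tight junctions, in which claudins, occludin and the junctional adhesion molecules close the gap between cells. Plaque proteins such as ZO-1 and cingulin tie the tight junction to the cytoskeleton. The sinusoidal endothelium of the liver is leaky, with open pores and little of the tight sealing known from brain vessels, and its junctions are under mechanical load from flow and pressure.

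The libraries differed in content before any comparison of pressures. Totals ran from 8925149 to 24025406 counts. The 29 matched hepatocyte markers summed to 312 CPM (counts scaled to the library total) in physiological replicate 1, and reached 474 and 815 CPM in pathological replicates 1 and 2, against 54839 and 39914 CPM in physiological replicates 2 and 3 and 78787 CPM in pathological replicate 3. The libraries are therefore also given below in these classes, poor (under 10000 CPM) and rich (10000 CPM or more) in hepatocyte RNA. The classes differ in other RNA too. The 14 matched sinusoidal endothelial markers summed to 5548, 9145 and 5776 CPM in physiological and 4709, 3974 and 9072 CPM in pathological replicates 1, 2 and 3. Among them, Lyve1 averaged 14.6-fold and Stab2 22.3-fold higher in the rich libraries, while Mrc1 averaged 0.702 and Cd36 0.00278 times the poor ones. The 16 macrophage markers summed to 899, 1406 and 917 CPM in physiological and 976, 48.3 and 1549 CPM in pathological replicates 1, 2 and 3. Libraries of the poor class thus differed among themselves in macrophage RNA, which was lowest in pathological replicate 2. The 3 rich libraries also had fewer genes with a count, from 10234 to 12833, than the 3 poor ones, from 13729 to 17189. In pathological replicate 3, 299 tested genes had at most 1 count although they stood at 10 CPM or more in each of the other 5 libraries, and in physiological replicate 3 there were 139 such genes, against 0 to 11 in the other libraries. Endothelial markers were present in every library: the 22 matched pan-endothelial markers, the junction members left out, summed to between 731 and 3394 CPM. The endothelial marker Pecam1 matched no row and was not used here.

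No junction gene passed the test for a difference by pressure. By edgeR's quasi-likelihood test with Benjamini-Hochberg adjustment, 0 of the 7 tested members and 0 of 12742 genes (0%) had an adjusted p under 0.05, and 33 genes (0.259%) had an unadjusted p under 0.05, among them 1 member, Cgn. limma-voom called 0 genes as well, whereas DESeq2 called 44 of 15021 genes (0.293%), again with 1 member, Cgn. The edgeR share of 0.259% lies below 0.05, the share that such p-values reach on average when no gene differs. The count of 0 therefore does not show that nothing changed. With 1 library left out, edgeR gave from 19 (without pathological replicate 2) to 827 genes (without pathological replicate 3) at an unadjusted p under 0.05. The ranges of CPM at the 2 pressures were separate for 1 of the 9 members, Cgn, or 11.1%. They were separate in either direction for 4.61% of all genes tested, and in the lower direction for 3.05%. Cgn passed the filter only through its physiological counts and so could not come out higher. The 9 members include Cldn5 and Ocln, which did not pass the filter, so this count carries no test. Below, values at each pressure are listed in the order of replicates 1, 2 and 3. Levels are CPM on scaled library totals, given as mean ± SD over 3 libraries per pressure, and log2 fold changes are pathological against physiological. Levels of different genes are not compared, since no transcript lengths were used. In these bulk samples, fewer cells of a type and less RNA per cell cannot be told apart.

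**Figure D1:**
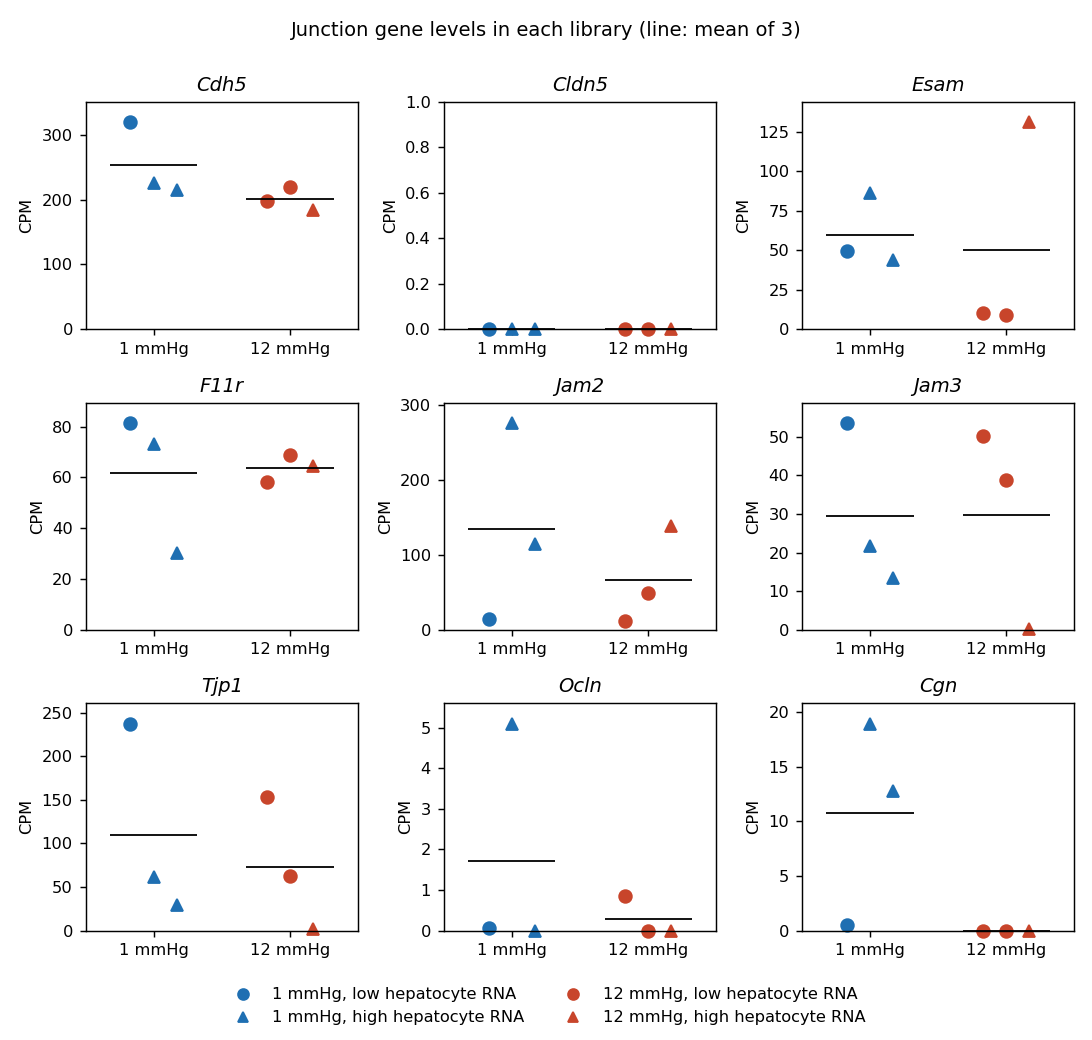
Level of each of the 9 junction genes in CPM (linear axis from 0, a separate scale for each gene) in the 3 libraries at 1 mmHg (blue) and the 3 at 12 mmHg (red); circles are libraries poor and triangles libraries rich in hepatocyte RNA, and lines are group means. Cdh5 lies between 184 and 320 CPM in all 6 libraries, Cldn5 is at 0 in all 6, and Cgn is at 0 in the 3 pathological libraries.

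Cdh5 (ENSRNOG00000013324) encodes VE-cadherin, the cadherin of endothelial adherens junctions. Its level was 320, 227 and 215 CPM in physiological replicates 1, 2 and 3, and 199, 220 and 184 CPM in pathological replicates 1, 2 and 3, respectively. The groups overlapped by 1 pathological library, replicate 2, which lay just above physiological replicate 3. Cdh5 measured 254 ± 57.5 CPM at 1 mmHg and 201 ± 18.4 CPM at 12 mmHg, with a log2 fold change of -0.34 (95% CI -1.57 to 0.89, edgeR adjusted p = 1). Its highest library exceeded its lowest 1.74-fold, the smallest such range among the 6 members with a count in every library. Within the poor libraries both pathological values lay below the physiological one, and within the rich libraries the pathological value lay below both physiological ones. The fold changes fitted within the classes were -0.60 in the poor and -0.25 in the rich libraries, with edgeR adjusted p of 1 and 0.89.

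The endothelial marker Kdr varied far more between libraries than Cdh5. Kdr, the main VEGF receptor of endothelium, stood at 43.8, 502 and 355 CPM at 1 mmHg and at 4.18, 13.6 and 487 CPM at 12 mmHg, 21.8-fold higher on average in the rich than in the poor libraries. For Cdh5 the mean of the rich libraries was 0.846 times that of the poor ones. Tie1, another endothelial receptor, was also near level, with a highest value 2-fold its lowest. As a list, the endothelial markers themselves summed to 1967, 3394 and 1906 CPM at 1 mmHg and to 988, 731 and 2716 CPM at 12 mmHg. Of the 21 tested, 19 had negative fold changes and 0 passed the threshold, with a median of -0.77, beside 0.05 for all genes tested. Their mean log2 CPM was 5.20, 6.66 and 5.54 at 1 mmHg and 3.54, 3.57 and 6.01 at 12 mmHg. Measured against this mean, Cdh5 lay 3.12, 1.17 and 2.21 log2 units above it in the physiological and 4.11, 4.21 and 1.52 above it in the pathological libraries. The mean difference on this relative scale was 1.11 log2 units higher at pathological pressure, with SDs of 0.98 and 1.53 over the 3 libraries of each group, and the groups overlapped. With single references chosen after seeing the data, the difference was -0.17 against Tie1 alone and 2.33 against Kdr alone, so its direction and size rested on the reference.

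Of the 15 other adherens junction genes, 14 were tested, 7 with positive and 7 with negative fold changes, and 0 passed the threshold. Their median log2 fold change was 0.03, beside 0.05 for all genes tested. Ptprb, which encodes the phosphatase VE-PTP that acts on the VE-cadherin complex, had the smallest unadjusted p of the list. It stood at 116, 67 and 44.6 CPM at 1 mmHg and at 31.8, 13.9 and 13.8 CPM at 12 mmHg. Every pathological library lay below every physiological one. Ptprb measured 75.9 ± 36.5 CPM at 1 mmHg and 19.8 ± 10.3 CPM at 12 mmHg, with a log2 fold change of -1.94 (95% CI -3.89 to 0.01). Its unadjusted p was 0.0514 and its edgeR adjusted p was 1. Groups did not overlap in the lower direction for 3.05% of all genes tested. Ctnna1, the alpha-catenin that links cadherins to actin, measured 590 ± 148 CPM at 1 mmHg and 813 ± 397 CPM at 12 mmHg, and reached 1207 CPM in pathological replicate 2; its groups overlapped.

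Claudin-5, the sealing claudin of endothelial tight junctions, had no count. Cldn5 (ENSRNOG00000045811) was at 0 in all 6 libraries, which allows a level of up to 0.0262 CPM over the libraries together, taking 3 counts as the limit. This limit covers counting error only. The annotation used for the counts is not given in the sources used here, so whether reads of Cldn5 could be assigned was not tested. The other 14 claudins on the list each had a count in some library, and 4 of them (Cldn1, Cldn3, Cldn12 and Cldn15) passed the filter. Cldn1 stood at 14.2, 6.94 and 0 CPM at 1 mmHg and at 1.93, 0 and 0 CPM at 12 mmHg, with a log2 fold change of -3.43 (95% CI -10.48 to 3.62, edgeR adjusted p = 1). Cldn12 measured 8.46 ± 10.1 CPM at 1 mmHg and 14.8 ± 9.75 CPM at 12 mmHg with overlapping groups.

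Ocln (ENSRNOG00000018297) encodes occludin, a membrane protein of tight junctions. It had 2, 88 and 0 counts in physiological replicates 1, 2 and 3 and 24, 0 and 0 counts in pathological replicates 1, 2 and 3, and did not pass the filter. Physiological replicate 2 held nearly all counts of its group, at 5.09 CPM, and pathological replicate 1 held all of the other, at 0.858 CPM. Among the 22 other membrane genes of the tight junction, claudins included, 7 were tested, 3 with positive and 4 with negative fold changes and a median of -0.51. None of the 7 passed the threshold, and their fold changes ran from -3.43 to 0.80.

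The junctional adhesion molecules are immunoglobulin-type proteins that bind across the cleft and serve leukocyte passage and cell polarity. F11r (ENSRNOG00000004414), which encodes JAM-A, had close means at both pressures. It stood at 81.3, 73.1 and 30.4 CPM at 1 mmHg and at 58.1, 68.9 and 64.3 CPM at 12 mmHg. The pathological values all lay inside the physiological range. F11r measured 61.6 ± 27.4 CPM at 1 mmHg and 63.8 ± 5.45 CPM at 12 mmHg, with a log2 fold change of 0.05 (95% CI -1.58 to 1.68, edgeR adjusted p = 1), an interval that leaves room for changes of more than 1 log2 unit in either direction.

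Jam2 (ENSRNOG00000042848) encodes JAM-B, a junction protein of venous and lymphatic endothelium. It stood at 13.9, 276 and 114 CPM at 1 mmHg and at 11.2, 49.4 and 139 CPM at 12 mmHg. The 3 rich libraries held the 3 highest values, 7.09-fold above the poor libraries on average, and the pressure groups overlapped. Jam2 measured 135 ± 132 CPM at 1 mmHg and 66.4 ± 65.4 CPM at 12 mmHg, with a log2 fold change of -1.02 (95% CI -3.75 to 1.71, edgeR adjusted p = 1). Without physiological replicate 2 the fold change was 0.09, and with a term for hepatocyte markers it was -0.03. Within the poor libraries it was 1.12, against -0.48 within the rich ones.

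Jam3 (ENSRNOG00000009149), which encodes JAM-C, the partner of JAM-B across the cleft, was distributed the other way. It stood at 53.5, 21.6 and 13.3 CPM at 1 mmHg and at 50.2, 38.7 and 0.0948 CPM at 12 mmHg, the last being 1 count. The 3 poor libraries held the 3 highest values, 4.07-fold above the rich ones on average. Jam3 measured 29.5 ± 21.3 CPM at 1 mmHg and 29.6 ± 26.2 CPM at 12 mmHg, with a log2 fold change of 0.01 (95% CI -3.67 to 3.69, edgeR adjusted p = 1). Jam3 is one of the 299 genes that were nearly absent from pathological replicate 3 alone, and without that library its fold change was 0.59.

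Esam (ENSRNOG00000033217) encodes an endothelial cell adhesion molecule found at tight junctions of endothelium and on platelets. It stood at 49.4, 86.5 and 43.5 CPM at 1 mmHg and at 10.3, 9.19 and 131 CPM at 12 mmHg. Pathological replicates 1 and 2 were the lowest of the 6 libraries and pathological replicate 3 was the highest. Esam measured 59.8 ± 23.3 CPM at 1 mmHg and 50.2 ± 70.1 CPM at 12 mmHg, with a log2 fold change of -0.25 (95% CI -2.89 to 2.38, edgeR adjusted p = 1). Without pathological replicate 3 the fold change was -2.61 (edgeR adjusted p = 0.858). The classes went opposite ways, with -2.33 in the poor and 1.02 in the rich libraries, each fitted over 3 libraries with edgeR adjusted p of 1 and 0.77.

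**Figure D2:**
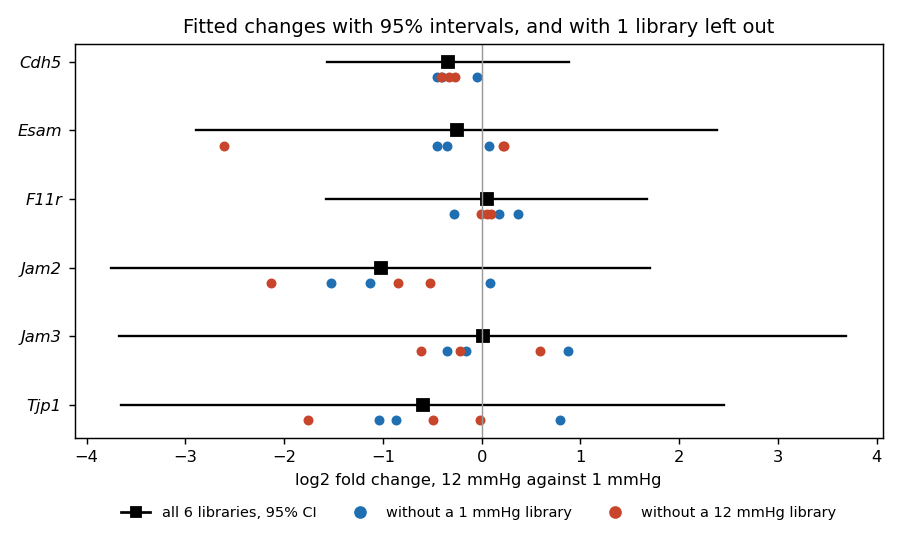
Log2 fold change at 12 mmHg against 1 mmHg for the 6 junction genes with counts at both pressures that were tested; black squares with lines are the fit over 6 libraries with its 95% confidence interval, and dots are fits with 1 library left out, blue for a 1 mmHg and red for a 12 mmHg library. Every interval crosses 0, and only the dots of Cdh5, from -0.45 to -0.05, all stay on one side of it.

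The plaque gene Tjp1 (ENSRNOG00000011077) encodes ZO-1, the scaffold that joins claudins and junctional adhesion molecules to actin. It stood at 237, 61.3 and 29.6 CPM at 1 mmHg and at 153, 62.9 and 1.99 CPM at 12 mmHg. Its poor libraries averaged 4.87 times the rich ones, and the pressure groups overlapped. Tjp1 measured 109 ± 112 CPM at 1 mmHg and 72.6 ± 75.9 CPM at 12 mmHg, with a log2 fold change of -0.59 (95% CI -3.65 to 2.46, edgeR adjusted p = 1). The fold change was -0.02 without pathological replicate 3, which held 21 counts, and 0.79 without physiological replicate 1. A covariate for hepatocyte content gave -2.34, and the fold change was -1.12 within the poor and -4.50 within the rich libraries, with edgeR adjusted p of 0.99, 1 and 0.389.

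Cgn (ENSRNOG00000020952) encodes cingulin, a plaque protein that binds ZO-1 and is best known from epithelia. It had 15, 327 and 90 counts in physiological replicates 1, 2 and 3, which is 0.494, 18.9 and 12.8 CPM, and 0 counts in each pathological library. The pathological libraries together allow up to 0.0503 CPM, and Cgn was at least 157-fold lower there, a bound that sets 3 counts over the group against 432 counts and covers counting error only. Cgn passed the filter through the group in which it was detected. Its unadjusted p was 0.0168, its edgeR adjusted p was 1, and its DESeq2 adjusted p was 0.00679. Of the 432 counts, 327 came from physiological replicate 2. The mean Cgn level was 64.3-fold higher in the rich than in the poor libraries, and pathological replicate 3 is the only rich library of its group. That library had no count for 3372 tested genes, against 1363 and 3011 in physiological replicates 2 and 3. The bound pools the classes. It does not separate the difference in make-up between the groups, or the missing genes of that library, from pressure. Within the poor class, physiological replicate 1 had 15 counts, against 0 in pathological replicates 1 and 2. With 1 library left out the bound was 341-fold without physiological replicate 1, 55.8-fold and 143-fold without physiological replicates 2 and 3, and 83.4-fold, 101-fold and 129-fold without pathological replicates 1, 2 and 3.

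Markers of bile duct and other epithelial cells moved with Cgn in part. Krt19, a bile duct keratin, stood at 0.165, 38.9 and 13.3 CPM at 1 mmHg and at 0.501, 0.663 and 0 CPM at 12 mmHg. Epcam, an epithelial adhesion molecule, stood at 0.0987, 5.9 and 15.1 CPM and at 0.679, 1.23 and 0 CPM. Sox9 was likewise at 0 in pathological replicate 3. Other keratins were distributed otherwise. Krt18 stood at 1.32, 77.3 and 78 CPM at 1 mmHg and at 3.25, 1.33 and 135 CPM at 12 mmHg. Krt7, a bile duct keratin, stood at 2.37, 17.4 and 0.143 CPM and at 1.39, 0.947 and 19.9 CPM, with a log2 fold change of 0.16 (edgeR adjusted p = 1). Krt18 and Krt7 were thus highest of all 6 libraries in pathological replicate 3, which had no count of Cgn. The 14 cholangiocyte and epithelial markers summed to 20.5, 303 and 170 CPM at 1 mmHg and to 37.3, 8.29 and 235 CPM at 12 mmHg. Of these, 4 were at 0 in every library, Muc1 and Prom1 among them. Pathological replicate 3 was rich in hepatocyte transcripts without any Cgn, with Hnf4a, a hepatocyte transcription factor, at 169 CPM against 151 and 63.9 CPM in the physiological libraries where Cgn was highest. Physiological replicate 1 had 15 counts of Cgn at a Krt19 level below those of pathological replicates 1 and 2. Of 14 tested markers of stellate cells, which share the culture, 2 were separate in the lower direction, as were 3.05% of all genes tested. Pdgfrb, a growth factor receptor of these cells, stood at 4.38, 18.1 and 61.1 CPM at 1 mmHg and at 0.501, 0.9 and 0 CPM at 12 mmHg, with an unadjusted p of 0.0242 and an edgeR adjusted p of 1. Acta2, the smooth muscle actin of activated stellate cells, stood at 2.93, 13 and 23.5 CPM and at 1.18, 0.616 and 0 CPM, with an unadjusted p of 0.0907 (edgeR adjusted p = 1). The 17 matched stellate markers summed to 701, 1610 and 1471 CPM at 1 mmHg and to 531, 440 and 1858 CPM at 12 mmHg, and 1 of them, Lum, was at 0 in every library. Lrat and Des, also on this list, were highest of all 6 libraries in pathological replicate 3, at 923 and 210 CPM. The part of epithelial and stellate cells in the Cgn difference was not tested. The part of the many genes without a count in pathological replicate 3 was not tested either.

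**Figure D3:**
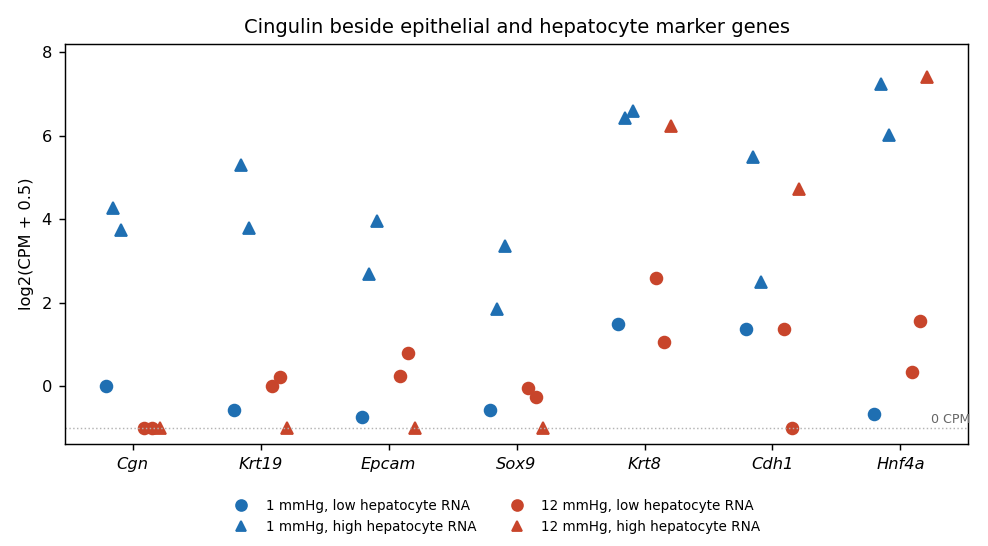
Levels of Cgn and 6 epithelial or hepatocyte marker genes in each library, as log2(CPM + 0.5), with the dotted line at 0 CPM; blue is 1 mmHg, red is 12 mmHg, circles are libraries poor and triangles libraries rich in hepatocyte RNA. Cgn, Krt19, Epcam and Sox9 are all at 0 in pathological replicate 3, where Krt8, Cdh1 and Hnf4a are present.

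Of 22 other plaque and polarity genes, 18 were tested, 8 with positive and 10 with negative fold changes, a median of -0.28 and 0 past the threshold. Cgnl1, the cingulin paralog paracingulin, is also known from endothelium. It stood at 14.1, 31.9 and 76.8 CPM at 1 mmHg and at 5.97, 5.54 and 31.8 CPM at 12 mmHg, with a log2 fold change of -1.50 (95% CI -4.28 to 1.28, edgeR adjusted p = 1). Within each content class its pathological values lay below the physiological ones, and over all 6 libraries the groups overlapped. Patj, a polarity scaffold, measured 7.67 ± 5.94 CPM at 1 mmHg and 1 ± 0.874 CPM at 12 mmHg. Pard6b, a polarity protein named after its values were seen, was the 1 gene of this list whose groups did not overlap, at 9.94, 9.89 and 23.2 CPM at 1 mmHg and 9.05, 5.31 and 0.0948 CPM at 12 mmHg, beside the 3.05% of all genes tested that were separate in this direction.

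Stretches before the start sites of Cgn, Tjp1 and Jam2 are shown because these genes were distributed over the libraries in 3 different ways: Cgn in physiological libraries only, Tjp1 highest where hepatocyte RNA was low, and Jam2 highest where it was high. The sequences are the 250 bases before the annotated start from RefSeq on GRCr8, 5′ to 3′ on the gene's strand. They come from chr2:185023636-185023885 (minus strand) for Cgn, chr1:128325361-128325610 (minus strand) for Tjp1 and chr11:37317310-37317559 (plus strand) for Jam2. Capitals mark GGAA or its reverse complement TTCC, the core bound by ETS factors such as ERG, and would also mark CAGGTG or CACCTG, the E-box bound by SNAIL-type repressors, of which these 3 windows hold none.
Cgn: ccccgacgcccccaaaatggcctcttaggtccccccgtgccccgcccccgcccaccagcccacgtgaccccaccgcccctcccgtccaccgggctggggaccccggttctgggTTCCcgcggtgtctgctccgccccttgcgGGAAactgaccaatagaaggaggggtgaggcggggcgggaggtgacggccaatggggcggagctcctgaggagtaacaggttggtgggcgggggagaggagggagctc
Tjp1: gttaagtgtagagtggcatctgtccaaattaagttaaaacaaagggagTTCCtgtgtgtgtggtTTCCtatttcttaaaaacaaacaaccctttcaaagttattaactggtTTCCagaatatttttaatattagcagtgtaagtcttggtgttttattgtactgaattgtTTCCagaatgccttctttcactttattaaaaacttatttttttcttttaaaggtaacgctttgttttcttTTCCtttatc
Jam2: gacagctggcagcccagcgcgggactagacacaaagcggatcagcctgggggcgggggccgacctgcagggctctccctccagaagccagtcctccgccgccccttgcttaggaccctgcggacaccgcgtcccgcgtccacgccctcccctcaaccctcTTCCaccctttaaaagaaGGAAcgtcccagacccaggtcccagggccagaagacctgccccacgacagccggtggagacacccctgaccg

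The windows differ in base composition. The Cgn window is 71.6% G and C with 19 CpG dinucleotides, the Jam2 window 68% with 17, and the Tjp1 window 30.4% with 1, beside medians of 51.2% and 5 over 33465 RefSeq promoters of the same length. Only 2.13% of these promoters had a G and C share at or below that of the Tjp1 window. Whether these cells use the annotated starts was not tested. Tjp1 holds 5 copies of GGAA on either strand and Cgn and Jam2 hold 2 each. At least 1 copy stands in 93.2% of all promoters, so its presence sets none of them apart. CAGGTG on either strand stands in 15.9% of all promoters. Of the 6 members with an entry it stands in F11r (1 copy) and Ocln (2 copies), but not in Cgn, Tjp1, Jam2 or Cldn5. Cdh5, Esam and Jam3 had no entry.

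The members thus fell into different profiles across the 6 libraries. As a description, the likeness of genes was measured as the root mean square difference of their log2(CPM + 0.5) values, each centred on its own mean, over the same 6 libraries, which differ in depth and cell content. Tjp1 and Jam3 differed by 0.50, and Cdh5 and F11r by 0.43. Jam2 and Esam differed by 1.36, while Jam2 differed from Jam3 by 3.49 and from Tjp1 by 3.46. For comparison, the median difference between Jam2 and all other tested genes was 2.32. The ligand pair Jam2 and Jam3 was further apart than Jam2 was from the median gene. The pair differed most in pathological replicate 3, where Jam3 had 1 count. The low values of Tjp1 and Jam3 in that library also enter their likeness.

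**Figure D4:**
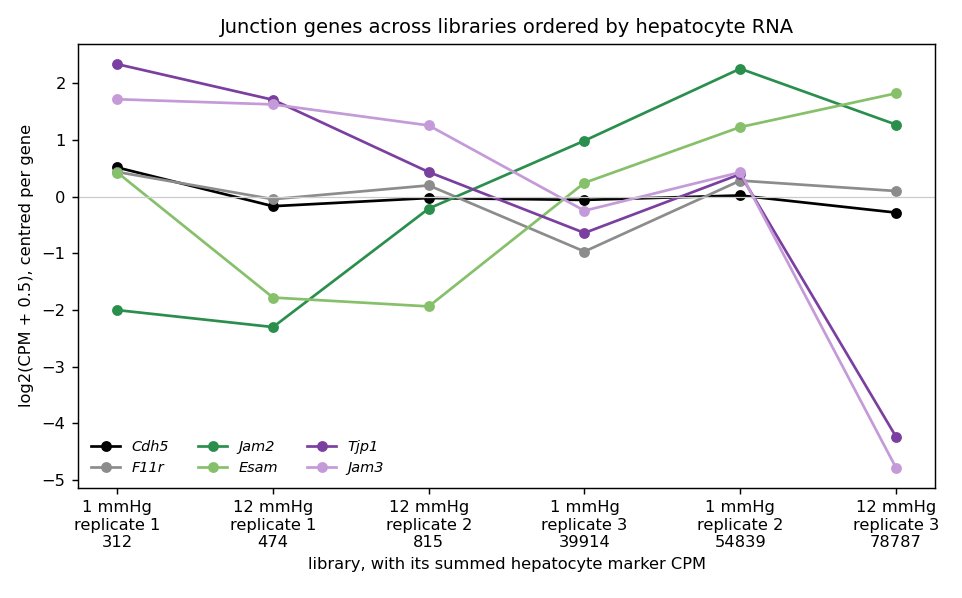
Levels of 6 junction genes as log2(CPM + 0.5), centred on each gene's mean, in the 6 libraries ordered from left to right by the summed CPM of the hepatocyte markers (printed under each library). Cdh5 stays near its mean, Jam2 is highest in the 3 libraries rich in hepatocyte RNA, Esam is lowest in pathological replicates 1 and 2, and Tjp1 and Jam3 fall steeply in pathological replicate 3, where they had 21 counts and 1 count.

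The tested genes with the most similar profile were named for each member. For Cdh5 these were the autophagy kinase gene Ulk2 (0.13 log2 units) and Ppfibp1 (0.14). Ulk2 stood at 111, 87.9 and 97.4 CPM at 1 mmHg and at 88.1, 95.1 and 75.3 CPM at 12 mmHg. For Esam they were Nos3, the endothelial nitric oxide synthase (0.34), and Rnf144b (0.35). Nos3 stood at 48.6, 72.9 and 24.1 CPM and at 7.33, 4.78 and 70.9 CPM, low in the same pathological replicates 1 and 2 as Esam. For Jam2 they were Robo2 (0.22) and the cytokine gene Il1a (0.36), and for F11r Osbpl9 (0.14) and Nrdc (0.18). For Jam3 they were Mmgt1 (0.10) and Gpn1 (0.13), both at 0 CPM in pathological replicate 3. For Tjp1 they were the kinase gene Sik2 (0.22) and Gon4l (0.26), at 0.19 and 0.0948 CPM in that library. For Cgn they were LOC360919 (0.19) and the growth factor gene Fgf1 (0.33), and Fgf1 was also at 0 in every pathological library.

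Within the content classes, 4 of the 9 members (44.4%), Cdh5, Jam3, Tjp1 and Cgn, lay lower in each pathological library than in each physiological library of the same class, against 12.9% of all genes tested. Cgn passed the filter only through its physiological counts and so could not come out higher. The 9 members include Cldn5 and Ocln, which were not tested. Of the 21 tested endothelial markers, 6 also lay lower within both classes. The classes hold 1 physiological with 2 pathological libraries and 2 with 1, so these counts carry no test. In the rich class the pathological values of Jam3 and Tjp1 are those of pathological replicate 3 alone, in which 3372 tested genes had no count, against 1363 and 3011 in the physiological libraries of that class. Their values in the poor class were 53.5 against 50.2 and 38.7 CPM for Jam3, and 237 against 153 and 62.9 CPM for Tjp1. In the other direction, 0 members lay higher within both classes, against 7.57% of all genes tested.

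Other contact genes of endothelium held 0 genes past the threshold as well. Of 9 matched genes 7 were tested, 2 with positive and 5 with negative fold changes and a median of -0.63, beside 47.5% negative among all genes tested and 19 of 21 negative among the endothelial markers. Icam2, an endothelial ligand of leukocyte integrins, stood at 3.82, 68.8 and 76.3 CPM at 1 mmHg and at 2.18, 2.65 and 18.5 CPM at 12 mmHg, with a log2 fold change of -2.68 (95% CI -6.06 to 0.71, edgeR adjusted p = 1). It was 18.9-fold higher in the rich than in the poor libraries and lay lower at pathological pressure within both classes. Eng (endoglin, a co-receptor of BMP signalling) measured 496 ± 284 CPM at 1 mmHg and 320 ± 269 CPM at 12 mmHg. Of the connexins, which form gap junctions, 6 of 7 were tested, 4 positive and 2 negative, with a median of 0.48. Gjb2, a connexin of hepatocytes, measured 5.98 ± 8.09 CPM at 1 mmHg and 0.941 ± 1.12 CPM at 12 mmHg.

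Regulators of junction strength, among them the Rap1 pathway, showed no common direction. Of 29 matched genes 28 were tested, 17 positive and 11 negative, with a median of 0.20 and 0 past the threshold. Rapgef3, the cAMP-activated exchange factor Epac1 that acts on Rap1, stood at 4.11, 13.5 and 0 CPM at 1 mmHg and at 0.822, 0 and 0 CPM at 12 mmHg. Src, a kinase that phosphorylates the VE-cadherin complex, measured 20.2 ± 12 CPM at 1 mmHg and 6.92 ± 4.72 CPM at 12 mmHg, with a log2 fold change of -1.54 (95% CI -4.71 to 1.62, edgeR adjusted p = 1). Rap1b, chosen after its values were seen, was the 1 gene of the list whose groups did not overlap. It stood at 93.4, 95.3 and 50.9 CPM at 1 mmHg and at 97.8, 137 and 132 CPM at 12 mmHg, with a log2 fold change of 0.61 (95% CI -0.78 to 2.01, edgeR adjusted p = 1). Groups did not overlap in the higher direction for 1.56% of all genes tested.

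**Figure D5:**
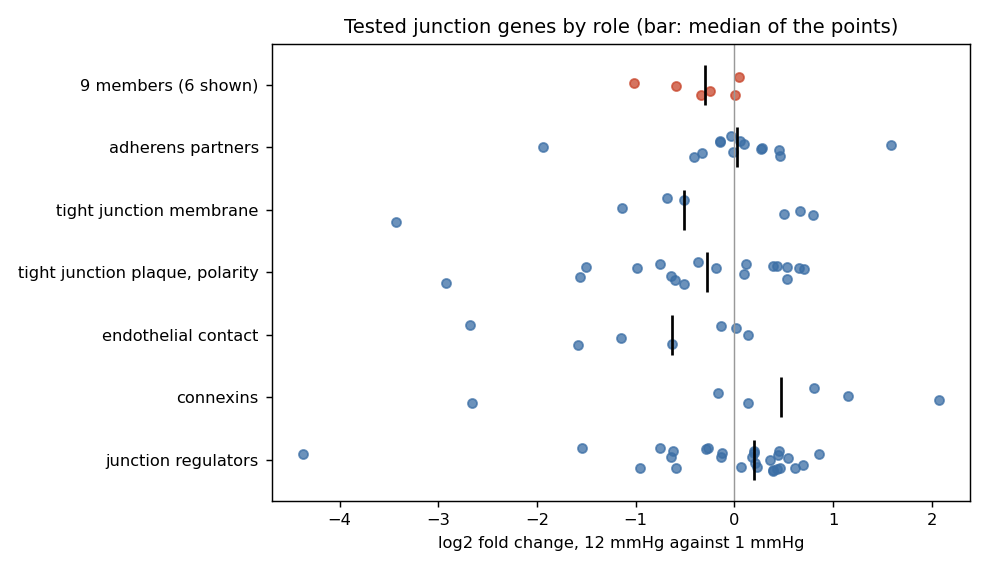
Log2 fold change at 12 mmHg against 1 mmHg of tested junction genes with counts at both pressures, 1 point a gene and 1 row a role, with the median of the points as a bar; the vertical line is 0. Points lie on both sides of 0 in every row, and none passed the threshold.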

How the data were processed

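Each library's deposited table holds expected counts, estimated reads for every gene without normalization, per the file headers. The submitters' processing notes name STAR, RSEM and limma. Build, annotation and strand setting are not given in the sources used, so overlapping, antisense and near-identical genes are uncertain. Fractional values made up 4.33% to 10.4% of a library and were rounded. They were compared with the quasi-likelihood test of edgeR 4.0.16 in R 4.3.3 over all 6 libraries, with TMM scaling, filterByExpr and no covariate, two-sided, at an adjusted p of 0.05. Log2 CPM used a prior of 0.5. Alternatives were other scalings, filters, DESeq2 1.42.0, limma-voom (limma 3.58.1), a hepatocyte term, each content class, leaving out each library and, added after seeing the data, a block of neighbouring sample numbers. Groups came from the labelled pressure, and replicate numbers follow deposition order and name libraries only. No label says that libraries came from separate animals or cultures. P-values then measure only the spread between these libraries, possibly technical. The members and lists were chosen with earlier results of these data known. Named genes were the members, the 2 genes with the smallest p in each of 6 junction lists, the 2 genes nearest in profile to each tested member, and content markers; 1 gene named by this rule is not reported here. Of 232 list entries 225 matched. The edgeR step was tested on simulated counts with far less spread than these libraries. Here the fitted biological coefficient of variation, the spread between libraries of a group relative to the mean, was 1.39. The simulation therefore does not show which changes could be found in these data.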

Additional observations from a re-analysis of the deposited data

How the results depend on the processing

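The count of 0 genes past the threshold held in 14 of the 16 alternatives. DESeq2 called 44 genes, and edgeR over the libraries rich in hepatocyte RNA alone, with 1 pathological library whose spread is assumed like that of the others, called 244. For the members the count of 0 held in 15 of the 16, and DESeq2 called 1, Cgn. The Cdh5 fold change stayed negative in all 16, from -0.60 to -0.05. Signs turned as follows. F11r was -0.08 with unscaled totals, -0.09 with limma-voom and -0.35 in the poor libraries, and Jam3 was -0.10, -1.51 and -0.26 there, -2.61 with the hepatocyte term and -7.36 in the rich libraries. Jam2 was 1.12 in the poor libraries, and Esam was 1.02 in the rich ones. With each library left out in turn, fold changes ran from -0.45 to -0.05 for Cdh5, -2.61 to 0.23 for Esam, -0.28 to 0.37 for F11r, -2.13 to 0.09 for Jam2, -0.61 to 0.88 for Jam3 and -1.76 to 0.79 for Tjp1. The cause was not tested. On the scale relative to endothelial markers, the difference moved with references chosen after seeing the data: for Tie1 alone it was -0.17 for Cdh5, -1.12 for Esam and 0.31 for F11r, and for Kdr alone it was 2.33 for Cdh5, 1.38 for Esam and 2.81 for F11r, against 1.11, 0.16 and 1.60 for Cdh5, Esam and F11r with 21 markers. The planned reference Pecam1 was not run because it matched no row. The labels give no shared replicate numbers and state no pairing, but sample numbers lie close to each other across the pressures (2 and 3, 11 and 9, 22 and 23). A replicate block of these neighbours, chosen after seeing the data, called 0 genes and 0 members with edgeR (31 genes at an unadjusted p under 0.05), with -0.32 for Cdh5, -1.51 for Esam, 0.16 for F11r, -0.80 for Jam2, -1.35 for Tjp1 and a turned sign for Jam3, -1.14. Deviations of neighbours from their group means correlated at 0.69, -0.24 and 0.42 across genes for replicates 1, 2 and 3. The neighbours shared a content class in replicates 1 and 3 but not in replicate 2. Whether neighbours share a preparation was not tested, and the main fit used no pairing. Cdh5 and Cgn were lower at 12 mmHg in all 3 pairs, as were 11.4% of all genes tested. The median of all genes moved from 0.05 to 0.15 with RLE scaling, to -0.07 with the block, to -0.24 with the hepatocyte term and to -0.58 in the rich libraries. For the 6 tested members with counts at both pressures, standard errors of the log2 fold change ran from 0.53 for Cdh5 to 1.60 for Jam3. Changes inside the intervals given are thus not excluded. Standard errors and intervals were derived from each fold change and its quasi-likelihood test statistic.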
